A study of Mus musculus with 2 samples.

Results

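The genes of glutathione, glucuronide and sulfate transfer were followed through the cells of mouse liver. Members were taken by symbol. They were the glutathione S-transferases of the Gst classes alpha, kappa, mu, omega, pi, theta and zeta, and the cytosolic sulfotransferases (Sult). With them were taken the UDP-glucuronosyltransferases and their UDP-glycosyltransferase relatives (Ugt1a, Ugt2a, Ugt2b and Ugt3a). Of 31053 genes listed, 64 matched (22 Gst, 21 Ugt and 21 Sult), and 48 of these had at least 20 unique molecular identifiers (UMIs, each 1 counted RNA molecule) over both libraries (20 Gst, 16 Ugt and 12 Sult). Just inside that limit were Ugt1a6b with 23 UMIs and Sult2b1 with 25, and just outside it Sult2a6 and Gsto2 with 19 each.

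The study compared droplet single-cell libraries of mixed liver suspensions, hepatocytes and non-parenchymal cells, from C57BL/6 mice. The pIVCL library came from partial inferior vena cava ligation, a surgical narrowing of the vein that congests the liver, performed at 8 to 10 weeks of age with the liver taken 6 weeks later. The Control library carries the title "Healthy", but its growth protocol describes the same ligation, so its group rests on the title and the genotype label. Its recorded starting age is also 8 to 10 weeks, and no week of liver harvest was assigned to it. Whether its animal had a sham operation, how many animals gave each library, and their sex are not given in the sources used here. Each group held 1 library, so there was no test and no replicate check: every difference compares these libraries, and the condition cannot be told apart from the library.

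Conjugation is the second stage of drug, hormone and bile pigment clearance. Glutathione S-transferases join electrophiles to glutathione, UDP-glucuronosyltransferases attach glucuronic acid from UDP-glucuronic acid, and sulfotransferases attach sulfate from the donor PAPS. In liver these enzymes are hepatocyte products above all, many are zoned along the axis from portal tract to central vein, several Gst genes are induced through the oxidant-responsive factor NRF2, and several Sult genes differ between the sexes.

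Alpha-class Gst genes are close relatives, and the promoters of 2 that were higher in pIVCL hepatocytes, Gsta1 and Gsta2, are shown with that of Gsta3, the most abundant alpha gene, which differed less. The sequences are the 250 bases before the RefSeq start on GRCm38.p6, 5′ to 3′ on the gene's strand. Capitals in Gsta1 (chr9:78230419-78230668, plus strand) and Gsta2 (chr9:78347146-78347395, minus strand) mark the runs of at least 15 bases found in both, and in Gsta3 (chr1:21240335-21240584, plus strand) they mark a match to the antioxidant response element core.
Gsta1: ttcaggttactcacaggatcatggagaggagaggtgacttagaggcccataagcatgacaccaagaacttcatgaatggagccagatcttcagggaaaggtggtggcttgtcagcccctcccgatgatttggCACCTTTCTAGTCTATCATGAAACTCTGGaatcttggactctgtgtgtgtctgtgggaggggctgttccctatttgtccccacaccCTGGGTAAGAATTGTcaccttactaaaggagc
Gsta2: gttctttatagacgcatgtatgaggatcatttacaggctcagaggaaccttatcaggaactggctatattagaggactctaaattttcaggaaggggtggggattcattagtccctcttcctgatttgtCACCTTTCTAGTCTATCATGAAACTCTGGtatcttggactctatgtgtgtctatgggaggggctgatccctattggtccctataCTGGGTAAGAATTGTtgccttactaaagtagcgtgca
Gsta3: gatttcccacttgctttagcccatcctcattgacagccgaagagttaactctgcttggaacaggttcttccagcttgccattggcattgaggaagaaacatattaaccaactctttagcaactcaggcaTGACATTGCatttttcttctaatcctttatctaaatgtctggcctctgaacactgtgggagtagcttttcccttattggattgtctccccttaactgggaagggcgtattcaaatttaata
Gsta1 and Gsta2 shared 2 such runs, the longer of 29 bases, which cover 44 of the 250 bases (17.6%). The promoters of Gstm1 and Gstm3, mu-class neighbours that were also higher in pIVCL hepatocytes, were compared in the same way and shared 0 such runs. The element searched was TGACNNNGC on both strands of 300-base windows (250 before and 50 after the start), and in Gsta3 its first base lay 121 bases before the start. It occurred in 12.39% of 32851 RefSeq promoters and in 3 of the 67 promoters of 56 matched members (4.48%), those of Gsta3, Gstm5 and Gstm7. None of the 7 promoters of the 6 matched members called different in hepatocytes held these letters in this window.

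The libraries differed in depth and make-up before any transferase was considered. Control held 3574 barcodes and 24637681 UMIs, and pIVCL 7042 barcodes and 38154000 UMIs, with 13 barcode sequences in both. After filtering, 2718 Control cells (median 5263.5 UMIs) and 5443 pIVCL cells (median 2005) were kept. Hepatocyte-like cells, named from 9 markers such as Alb and Ttr, were 367 in Control (median 19147 UMIs) and 1850 in pIVCL (median 2599). Alb stood at 56050 and 47889 CPM in them, where CPM scales a gene's UMIs to the UMI total of the class. Of marker lists for 17 other classes, the highest sums in hepatocyte-like cells were those of monocytes (1173 CPM in Control and 884 in pIVCL) and vascular endothelium (983 and 1177), whose lists hold Fn1 and Clu, genes that hepatocytes also express. The 10 Kupffer markers summed to 46.5 and 22.7 CPM, the 10 sinusoidal endothelial markers to 131 and 32.0, and the 8 neutrophil markers to 19.3 and 213. The part of other cells' RNA in the differences below was not tested. The female-specific RNA Xist had 17860 UMIs in Control and 24762 in pIVCL, while the Y-linked Ddx3y and Eif2s3y had 0 in both. The Y-linked Uty had 2 UMIs in Control and 3 in pIVCL, and Kdm5d 2 and 1.

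Hepatocytes shared few clusters between the libraries. Of 8 hepatocyte-like clusters, 3 held at least 30 cells of each library. The other 5 held 93.5% of Control and 89.5% of pIVCL hepatocyte UMIs (64.6% and 43.5% of the cells). A cluster made up mostly of 1 library may be that library rather than a kind of cell, and transferases took part in the clustering: Gstm3 and Gstm1 were among the genes leading a pIVCL cluster, and Sult3a1 among those leading a Control cluster. Values within the 3 shared clusters are therefore given below for the 7 called members, Ugt3a1 and Sult1a1.

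In hepatocyte-like cells the glutathione transferases were higher in pIVCL as a family, while the other families were slightly lower. Gst UMIs summed to 3455 CPM in Control against 6597 in pIVCL, a ratio of 1.91 (interval 1.88 to 1.94). Ugt UMIs summed to 1908 and 1677 CPM (ratio 0.879, 0.861 to 0.897), and Sult UMIs to 1107 and 1052 CPM (0.951, 0.926 to 0.976). Intervals here and below are exact at 95% and cover counting error only, not differences between animals or preparations.

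Of the 48 quantified members, 45 had at least 20 hepatocyte UMIs over both libraries and were compared. A member was called higher or lower when its log2 ratio of pIVCL over Control, with 20 CPM added to both levels, was at least 1 in size, which understates the ratio of low genes. By this rule 6 members were higher (Gstm3, Gstp1, Gsta2, Gsta1, Gstm1 and Gsta4) and 1 was lower (Sult3a1). Among all 11275 genes compared, 0.408% were called higher and 0.443% lower. The median log2 ratio was 0.01 over the 45 members and 0.00 over all genes. The filter was met in both libraries by 39 members, in Control only by Sult2a1 and Sult3a2, and in pIVCL only by Ugt1a9 and Gsta1. It was met only as a sum by Ugt2b38 and Sult2a5. Gsta1, Sult2a1 and Sult3a2 could therefore each enter only through the library in which it is high.

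**Figure D1:**
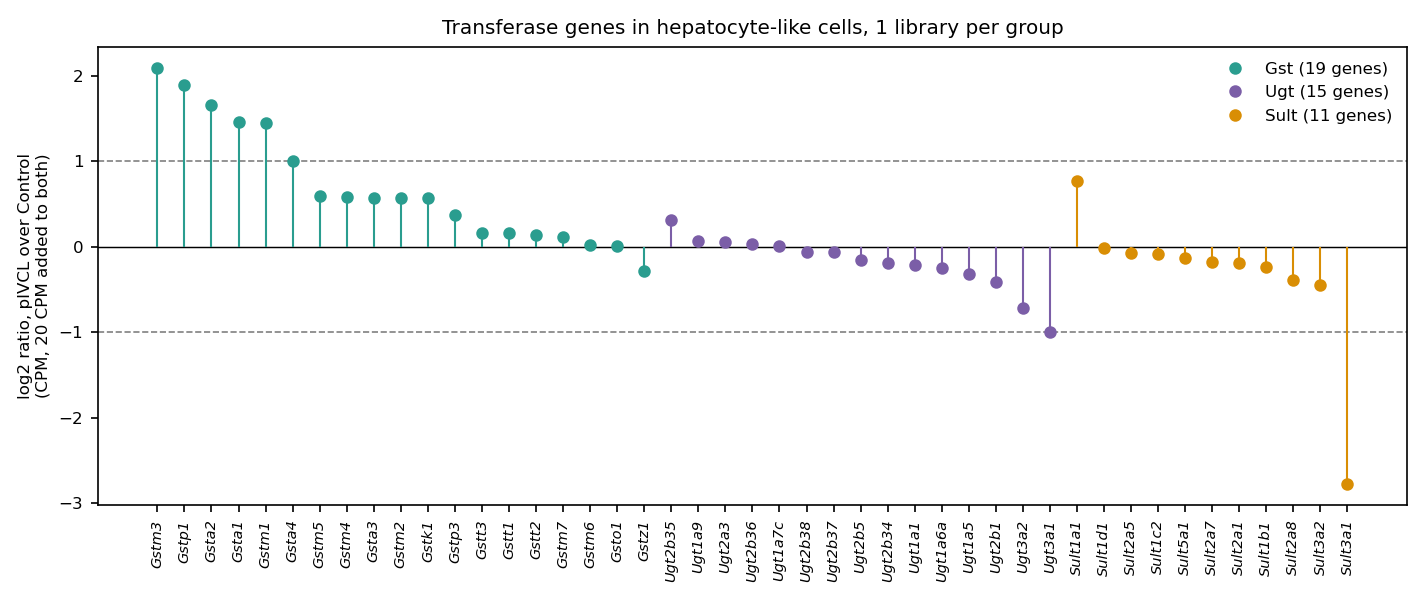
Log2 ratio of pIVCL over Control in hepatocyte-like cells, with 20 CPM added to both levels, for the 45 members compared, by family; dashed lines mark a ratio of 2 in either direction. Gst members lie above 0 with 1 exception (Gstz1), and Sult3a1 at -2.78 is the lowest point.

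The mu class carried most of the difference in level. Gstm1, a major hepatic glutathione transferase (chromosome 3, 108012255 to 108017973, GRCm38, minus strand), had 1238 CPM in Control against 3403 in pIVCL, a ratio of 2.75 (2.69 to 2.81). Its neighbour Gstm3 (chromosome 3, 107963696 to 107969283, minus strand) had 28.9 and 188 CPM, a ratio of 6.52 (5.65 to 7.54). Both were also higher inside each shared cluster. The Gstm1 ratio there was 2.55 (1.96 to 3.38), 2.45 (2.17 to 2.77) and 5.39 (4.12 to 7.17). That of Gstm3 was 7.47 (1.31 to 298), 4.19 (2.31 to 8.48) and 23.4 (3.81 to 961), where the first and last rest on 1 Control UMI each. Over every setting tried, the log2 ratio ran from 1.40 to 1.86 for Gstm1 and from 1.59 to 2.70 for Gstm3.

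The other mu genes were not called once 20 CPM was added. Gstm5 had 12.2 CPM in Control and 28.5 in pIVCL (ratio 2.33, 1.85 to 2.96), Gstm4 27.6 and 50.9 (1.85, 1.58 to 2.17), and Gstm2 45.1 and 76.8 (1.70, 1.51 to 1.93). Gstm6 and Gstm7 differed little, at ratios of 1.01 (0.912 to 1.13) and 1.11 (0.985 to 1.26). The 7 mu genes lie together on chromosome 3, so the genes of this one cluster had ratios from 1.01 to 6.52. The last 400 bases of Gstm1 transcripts, where this 3′ assay reads, were cut into short overlapping stretches of fixed length. Of these stretches 24.1% were found in other genes, Gstm3 among them, so some Gstm1 reads could be ambiguous. Gstm3 shared none of its own.

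Alpha-class transferases, which also reduce lipid peroxides, were low in Control hepatocytes except for Gsta3. Gsta1 had 8 UMIs (1.14 CPM) in Control against 675 (37.8 CPM) in pIVCL, a ratio of 33.2 (16.8 to 77.3). Gsta2 had 11.7 and 79.4 CPM, a ratio of 6.81 (5.45 to 8.61). Gsta4, which conjugates the lipid peroxidation product 4-hydroxynonenal, had 33.9 and 87.9 CPM, a ratio of 2.60 (2.27 to 2.99). Gsta1 and Gsta2 are uncertain as separate genes, since 89.8% and 62.5% of their 3′ end stretches occur in other genes, each other among them. Gsta3, on chromosome 1 apart from the chromosome 9 genes, had 934 and 1400 CPM (1.50, 1.46 to 1.54).

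The alpha-class differences did not hold in every shared cluster. In the shared cluster led by Rida and Fabp1 (45 Control and 450 pIVCL cells), Gsta2 had 166 CPM in Control and 188 in pIVCL (ratio 1.13, 0.740 to 1.81), and Gsta4 had 270 and 278 (1.03, 0.736 to 1.48). The Gsta4 ratio in the other two shared clusters was 2.16 (0.571 to 18.2), on 2 Control UMIs, and 2.27 (0.519 to 13.6), on 3. In the shallow shared cluster led by Saa2 (33 and 511 cells), the Gsta2 ratio was 0.988 (0.365 to 3.75), on 4 Control UMIs. In the cluster led by Neat1 (52 and 84 cells) it was 3.57 (0.943 to 19.9), on 3 Control UMIs. Gsta1 had 4 and 83 UMIs in the Rida cluster, a ratio of 2.81 (1.06 to 10.5), and 0 Control UMIs in the other two. Gsta4 also came under 2-fold in 12 of the 19 alternatives tried, down to a log2 ratio of 0.72, Gsta2 under the stricter cell filter, at 0.94, and Gsta1 with 50 CPM added, at 0.78.

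Gstp1, of the pi class, had 18.5 CPM in Control against 122 in pIVCL, a ratio of 6.61 (5.54 to 7.95). Within the shared clusters its ratio was 0.682 (0.329 to 1.64), 1.89 (1.21 to 3.10) and 3.90 (0.777 to 37.7). Control levels there were 216.5, 145.2 and 7.24 CPM, on 8, 21 and 2 UMIs. The pIVCL levels were 147.8, 274.1 and 28.2 CPM. With 20 CPM added the log2 ratios were -0.496, 0.832 and 0.824, so no shared cluster reached 2-fold. Of the 3′ end stretches of Gstp1, 43.6% occur in Gstp2 or a pseudogene. Gstp3 stood at 15.1 and 25.3 CPM (1.68, 1.35 to 2.09), and Gstp2 had 10 hepatocyte UMIs in all and was not compared.

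None of the remaining classes held a called member. Gstt1 had 236 and 267 CPM, Gstt3 90.5 and 104, and Gstt2 45.2 and 51.9. Gsto1, of the omega class, had 124 and 125 CPM, and the kappa-class Gstk1 45.9 and 77.6 (ratio 1.69, 1.50 to 1.91). Gstz1, which also acts in tyrosine breakdown as maleylacetoacetate isomerase, was the only compared Gst member below 0, with 427 CPM in Control and 346 in pIVCL (ratio 0.810, 0.775 to 0.847). Altogether 18 of 19 Gst members had a log2 ratio above 0, with a median of 0.57. Gstm1 alone made up 35.8% of hepatocyte Gst UMIs in Control and 51.6% in pIVCL, and Gsta3 27.0% and 21.2%.

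**Figure D2:**
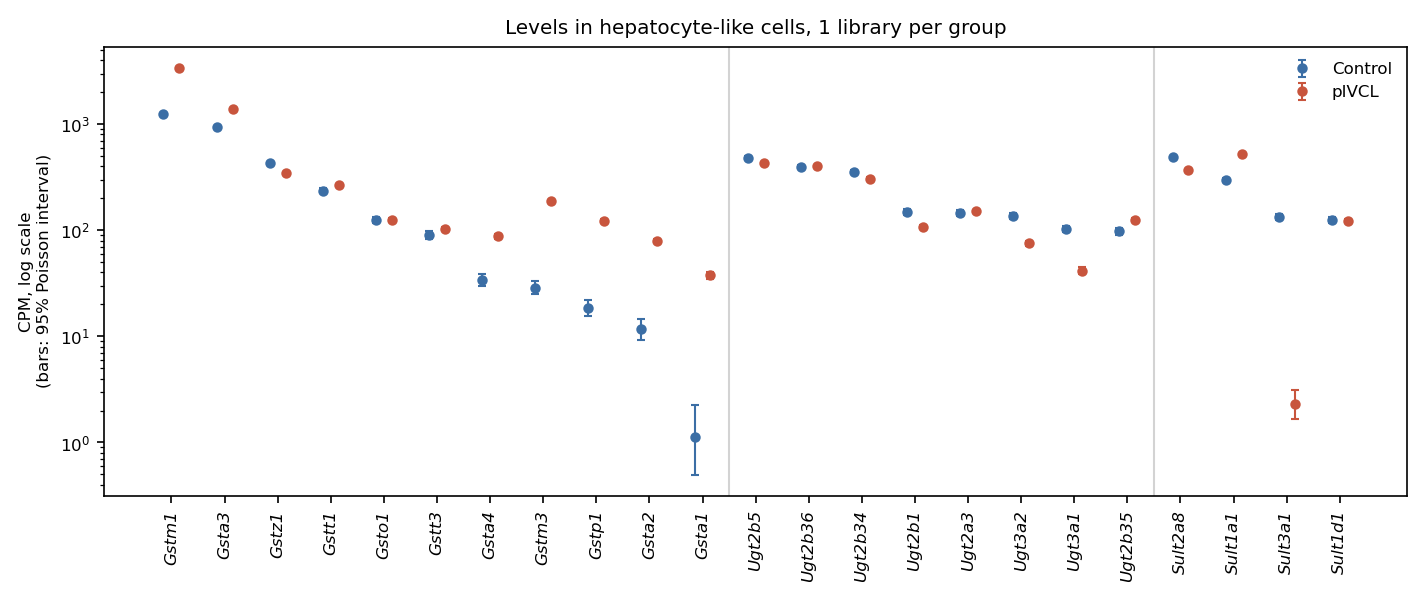
Level in hepatocyte-like cells (CPM, log axis) in Control and pIVCL for members with at least 100 CPM in either library or a 2-fold difference; bars are exact 95% Poisson intervals of 1 library each. Gstm1 and Gsta3 are the highest in both libraries, and Sult3a1 shows the widest gap, at 133 against 2.30 CPM.

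No glucuronosyltransferase was called in hepatocyte-like cells. The Ugt2b genes, which act on steroids, bile acids and drugs, had the highest assigned counts of the family. Ugt2b5 had 481 CPM in Control and 431 in pIVCL, Ugt2b36 395 and 406, and Ugt2b34 353 and 306. Ugt2b1 had 148 and 107 CPM (ratio 0.721, 0.668 to 0.778), Ugt2a3 145 and 151, and Ugt2b35 97.4 and 126, the latter being the one Ugt gene whose interval lay above 1 (1.19 to 1.41). The lowest ratios among the well measured genes were those of the Ugt3a pair, whose enzymes use other sugars than glucuronic acid. Ugt3a1 had 103 and 41.6 CPM, a ratio of 0.404 (0.364 to 0.448) and a log2 ratio of -0.997 that just missed the limit. Ugt3a2 had 136 and 75.1 CPM (0.552, 0.508 to 0.601). In the shared clusters the Ugt3a1 ratio was 0.431, 0.857 and 0.620, each with an interval that includes 1.

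The Ugt1a genes, among them the bilirubin transferase Ugt1a1, are alternative first exons joined to common last exons. Reads from their shared 3′ end cannot be assigned to one of them, and 65.0% to 100% of the 3′ end stretches tested were shared. Summed, they had 37.0 CPM in Control and 23.3 in pIVCL (ratio 0.630, 0.538 to 0.738). This sum holds only UMIs assigned to a single gene, so it may understate Ugt1a RNA, as may the Ugt family total. The level of Ugt1a beside Ugt2b is therefore not known from these counts. Over the Ugt family 5 of 15 compared members had a log2 ratio above 0, with a median of -0.15.

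Among sulfotransferases Sult3a1 stood apart. Sult3a1, on chromosome 10 (33857721 to 33879532, plus strand) and known from female mouse liver, had 933 UMIs (133 CPM) in Control against 41 (2.30 CPM) in pIVCL, a ratio of 0.0173 (0.0123 to 0.0237). Its neighbour Sult3a2 had 52 and 2 UMIs, a ratio of 0.0151 (0.00179 to 0.0575). Sult2a1 had 22 and 4 UMIs (0.0716, 0.0179 to 0.211). Sult3a2 and Sult2a1 were low enough for the added 20 CPM to keep them within 2-fold. Both met the filter of 20 UMIs in Control only, the library in which they are high. Within the shared clusters Sult3a1 had 1 Control UMI against 5 in pIVCL (0.359, 0.0402 to 17.0), 13 against 6 (0.0624, 0.0195 to 0.176) and 29 against 0, for which the upper limit of the ratio was 0.132. Of all Control Sult3a1 UMIs in hepatocytes, 883 of 933 lay in 1 Control cluster of 133 cells, led by Slc1a2 and Glul.

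The other abundant sulfotransferases went separate ways. Sult1a1, the phenol sulfotransferase, had 299 and 523 CPM (1.75, 1.67 to 1.83) and was the only compared Sult member above 0. Its ratio in the shared clusters was 1.49 (0.9503 to 2.46), 1.16 (0.959 to 1.40) and 1.57 (1.17 to 2.11). Sult2a8, a bile acid sulfotransferase, had 485 and 367 CPM (0.755, 0.725 to 0.788), and Sult1d1 124 and 123. Sult1a1 therefore went from 27.1% to 49.8% of hepatocyte Sult UMIs, and Sult2a8 from 44.0% to 34.9%, while Sult3a1 was 12.0% of them in Control. Of the remaining compared Sult members, Sult1b1 was the highest, at 24.6 and 17.8 CPM. Over the family 1 of 11 compared members was above 0, with a median of -0.18.

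Depth differed between the libraries, so shares of cells were compared after each cell was thinned to 2000 UMIs, which left 304 Control cells (63 left out) and 1031 pIVCL cells (819 left out). Gstm3 was then seen in 4.61% of Control and 25.5% of pIVCL cells (20.2% and 42.7% unthinned), Gsta2 in 3.95% and 17.3% (15.3% and 35.5%), and Gstp1 in 3.62% and 20.4% (24.0% and 40.8%). Sult3a1 was seen in 17.8% and 0.388% (39.0% and 1.46%). At 2000 UMIs a cell such shares depend largely on the mean level. They are therefore no separate result on how many hepatocytes express the RNA. Gstm1 was already in most Control cells, at 78.3% and 96.2% after thinning.

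Zonation was read within each library from 12 pericentral and 12 periportal genes that include no transferase. Hepatocyte-like cells with at least 20 UMIs of these lists were divided at the pooled median share of pericentral UMIs, 19.8%, after cells rich in Glul, the glutamine synthetase of the layer around the central vein, had been set apart. Control gave 35 Glul-rich, 158 central and 130 portal cells (44 could not be placed), and pIVCL 9, 518 and 546 (777 not placed). The division is a range, not a cell type: 13.2% of Control and 18.3% of pIVCL zoned cells lay within 5 percentage points of the dividing value. The pericentral list was itself lower in pIVCL hepatocytes, with 12 of 12 genes below 0 and a median log2 ratio of -0.68.

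In Control, 3 members were at least 2-fold higher in central cells (0.724% of all genes) and 1 in portal cells (0.362% of all genes). Central Sult3a1 had 148 CPM against 5.46 in portal cells (ratio 27.1, 15.7 to 51.2) and reached 368 in Glul-rich cells. Gstm2 had 34.7 and 6.71 CPM (5.17, 3.06 to 9.33), with 166 in Glul-rich cells, and Gstm6 had 68.1 and 22.2 (3.06, 2.27 to 4.20), with 168. On the portal side, Sult5a1 had 31.1 CPM against 4.24 in central cells (central over portal 0.136, 0.0727 to 0.240). Gsta2 leaned the same way without being called, at 25.6 portal and 4.80 central CPM.

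In pIVCL only Gstm2 was called, at 110 CPM in central and 29.5 in portal cells (ratio 3.73, 3.22 to 4.33), where 0.289% of all genes were called central and 0.14% portal. Gstm6 had 82.1 and 50.6 CPM there (1.62, 1.43 to 1.84), Sult5a1 3.88 and 17.1 (0.227, 0.153 to 0.329), and Sult3a1 31 and 0 UMIs. Of 39 members compared in both libraries, none was called in opposite directions. Gstm1 and Gsta3 were moderately central in both: Gstm1 at 1300 and 717 CPM in Control (1.81, 1.72 to 1.92) and 3884 and 2653 in pIVCL (1.46, 1.44 to 1.49), Gsta3 at ratios of 1.83 (1.72 to 1.95) and 1.47 (1.43 to 1.51). The Control calls other than Sult3a1 rest on low levels, and each of them was lost when 50 CPM was added or cells were thinned. With equal weight for each zone list gene, Gstm2 (log2 ratio 0.91) and Sult5a1 (-0.92) lost their Control calls and Gsta2 was called portal (-1.01).

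**Figure D3:**
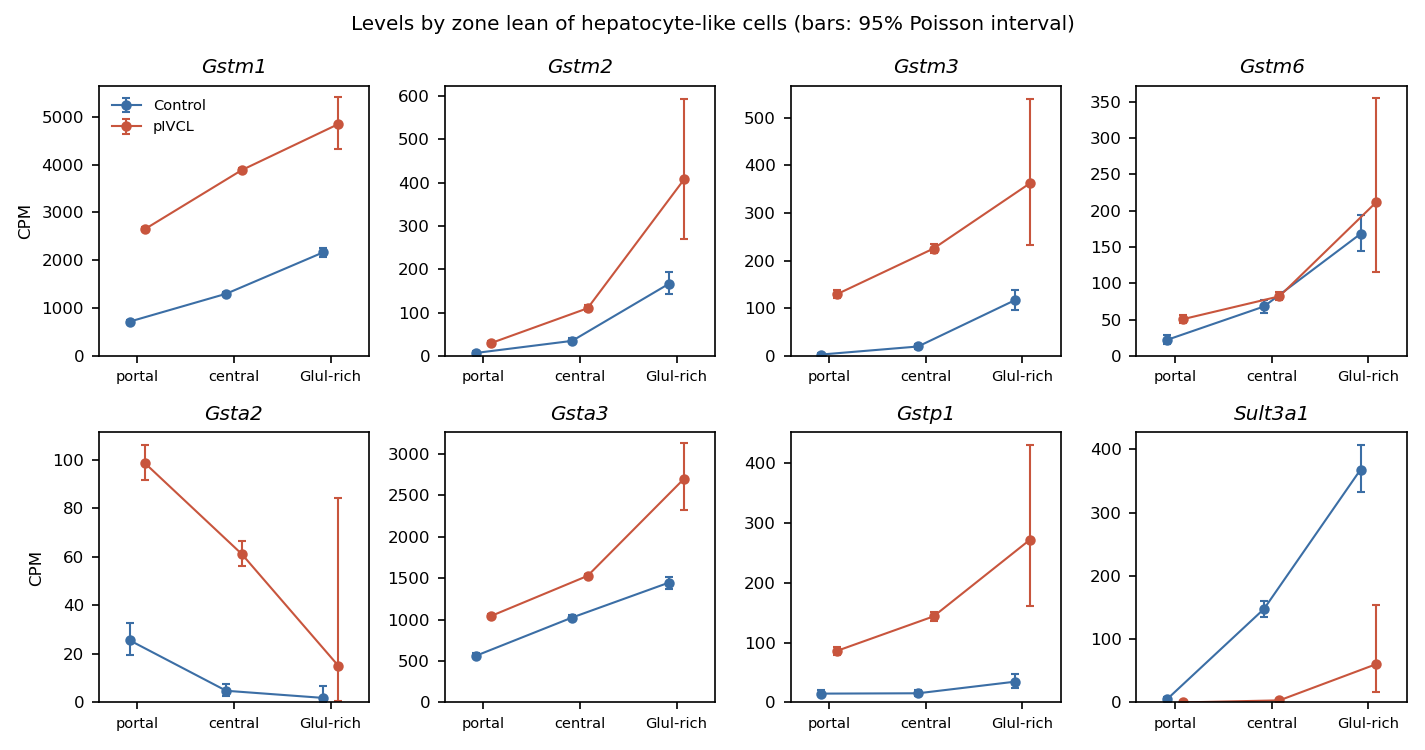
Level (CPM) in portal, central and Glul-rich hepatocyte-like cells of Control and pIVCL for 8 members; bars are exact 95% Poisson intervals of 1 library each. Gstm2 is lowest in portal and highest in Glul-rich cells of both libraries (9 cells in pIVCL), and Sult3a1 runs from 5.46 to 368 CPM in Control.

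Between zones of the same name, the same Gst genes stood out, but these zones were not matched between the libraries. Central cells had 4110 CPM of Cyp2e1 in Control and 1207 in pIVCL, and 248 and 584 of Cyp2f2. In portal cells Cyp2f2 had 1300 and 1810 CPM. In central cells 7 members were higher in pIVCL, the earlier 6 with Gstm2 (34.7 and 110 CPM, ratio 3.17, 2.62 to 3.85), beside 0.784% of all genes, and 2 were lower, Sult3a1 and Ugt3a1, beside 0.526%. In portal cells 5 were higher, Gstm3, Gstm1, Gstp1, Gsta2 and Gsta1 (0.374% of all genes), and 0 were lower (0.333%). Gstm3 had 19.8 CPM in Control and 225 in pIVCL central cells, and 2.94 and 129 in portal cells, ratios of 11.4 (8.98 to 14.7) and 44.0 (21.3 to 110). Gsta2 had 25.6 and 98.5 CPM in portal cells (3.85, 2.96 to 5.08) and 4.80 and 61.2 in central cells (12.7, 7.89 to 22.0). Sult3a1 had 148 and 3.25 CPM in central cells (0.0220, 0.0148 to 0.0317). In portal cells it had 13 UMIs in Control and 0 in pIVCL, under the filter of 20, and was not compared.

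Genes that serve these enzymes were read from lists outside the family. For glutathione synthesis and supply, 8 of 10 compared genes were above 0 with a median log2 ratio of 0.18 and none was called. Cth, which makes cysteine from cystathionine, had 271 CPM in Control and 526 in pIVCL. Of NRF2 targets other than transferases, 12 of 13 were above 0 with a median of 0.34 and again none was called, with Srxn1 (24.5 and 51.4 CPM), Hmox1 (2.56 and 15.2) and Ces1g (161 and 260) the farthest. Among membrane-bound and other glutathione enzymes 6 of 9 were above 0 (median 0.08) and 1 was called, the lipid hydroperoxide reductase Gpx4 at 373 and 835 CPM. Mgst3 had 9.53 and 38.8 CPM.

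The supply of UDP-glucuronic acid and PAPS gave 6 of 10 above 0 with a median of 0.03, led by Ugdh, the UDP-glucose dehydrogenase, at 68.4 and 145 CPM. The 3 conjugate hydrolases had a median of 0.04. Of 10 transporters for conjugates and organic anions 8 were below 0, with a median of -0.22, and 2 were called lower, the uptake carriers Slco1a1 (191 and 19.1 CPM) and Slco1b2 (1354 and 533). Of 12 xenobiotic and bile acid sensors 8 were below 0 (median -0.25) and 1 was called lower, Nr1i3, the receptor CAR, at 173 and 62.1 CPM, while Nfe2l2, which encodes NRF2, had 49.5 and 83.3. Targets of CAR, PXR and AhR gave 6 of 11 above 0 and none called (median 0.17).

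Sex-biased hepatocyte genes were read beside Sult3a1. Of 12 female-predominant genes outside the transferases 11 were below 0 (median -0.47) and Cyp3a44 was among those called lower, at 141 and 17.8 CPM. Genes listed as male-predominant were mixed, with 8 of 10 below 0 (median -0.29). Mup20 was higher, at 112 and 1150 CPM, and Slco1a1 was lower. Cyp2c69 was also lower (901 and 103 CPM), but its place on a male-predominant list is doubtful. The count and median of this list therefore do not describe male-predominant genes alone. Dissociation stress genes had a median of -0.04 over 16, with none called. The Sult3a1 ratio was 0.0220 within central cells and 0.0173 over all hepatocytes, but central cells were not matched between the libraries. The part of zone make-up, sex-biased expression or cell isolation in the Sult3a1 difference was not tested.

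Outside hepatocytes, most transferase RNA had to be read against hepatocyte RNA carried in other droplets. For each class this carry-over was measured from 18 hepatocyte secreted-protein and similar genes. It is their summed CPM in the class over their summed CPM in hepatocytes, so the most abundant, such as Alb, weigh most. Carry-over ranged from 4.57% to 40.7% over classes and libraries. A member's level over carry-over is its CPM divided by the level so foreseen. It was taken as above when it exceeded the highest of the 18 genes with at least 20 UMIs in a class of at least 50 cells. This gave 40 pairs of member and class in Control and 92 in pIVCL, 25 in both. At 2 times the highest reference gene, 30 and 23 pairs were left, 14 in both, and all of the members named below as above carry-over met that stricter limit. All 20 Ugt pairs of the pIVCL library lay between the limits, so no Ugt gene was above the stricter one in any class of either library.

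Mu and pi transferases stood farthest above carry-over, in endothelial cells, stellate cells and cholangiocytes. Gstm2 stood at 109 CPM in Control liver sinusoidal endothelial cells (LSEC), above the 45.1 CPM of hepatocytes, and at 79.3 in pIVCL, 47.3 and 12.4 times carry-over. In hepatic stellate cells it had 141 and 148 CPM (39.1 and 27.4 times), and in Control vascular endothelial cells 147 (59.3 times). Gstm5 had 45.1 and 52.8 CPM in stellate cells (46.1 and 26.3 times), 56.3 in Control vascular endothelial cells (83.6 times) and 161 in pIVCL cholangiocytes (38.4 times). Gstp1 reached 74.7 CPM in Control vascular endothelial cells (73.4 times) and 35.4 in Control LSEC (37.3 times), where its Control hepatocyte level was 18.5. Only 21.2% of Control Gstp1 UMIs and 23.1% of Control Gstm2 UMIs were in hepatocyte-like cells, against medians of 70.7% over Gst, 89.0% over Ugt and 83.6% over Sult members. In pIVCL, where hepatocyte-like cells were 34.0% of kept cells against 13.5% in Control, the shares were 87.2% for Gstp1 and 79.2% for Gstm2, beside a Gst median of 89.0%.

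Other members were above carry-over in immune, endothelial or stellate cells. Gsto1 had 103 CPM in Control and 116 in pIVCL Kupffer cells (9.37 and 4.40 times), and 85.2 in pIVCL monocytes and macrophages (8.28 times). Gstk1, the peroxisomal and mitochondrial kappa enzyme, had 51.4 and 41.4 CPM in LSEC (21.8 and 6.43 times). Gsta4 had 52.5 CPM in Control stellate cells (19.4 times), and Gstt1 127 and 108 in stellate cells of both libraries (6.72 and 5.73 times). Gstp3 had 21.8 and 34.8 CPM in T cells (19.8 and 8.19 times). Gstt2 had 26.5 and 25.1 CPM in LSEC (11.4 and 5.83 times). Sult1a1 was the one sulfotransferase at this level, with 118 and 152 CPM in LSEC (7.71 and 3.49 times). Sult2b1, the cholesterol sulfotransferase, had no UMI in hepatocyte-like cells of either library, and 7 of its 13 Control UMIs in kept cells were in cholangiocytes (27.6 CPM, 11.1 to 56.8).

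**Figure D4:**
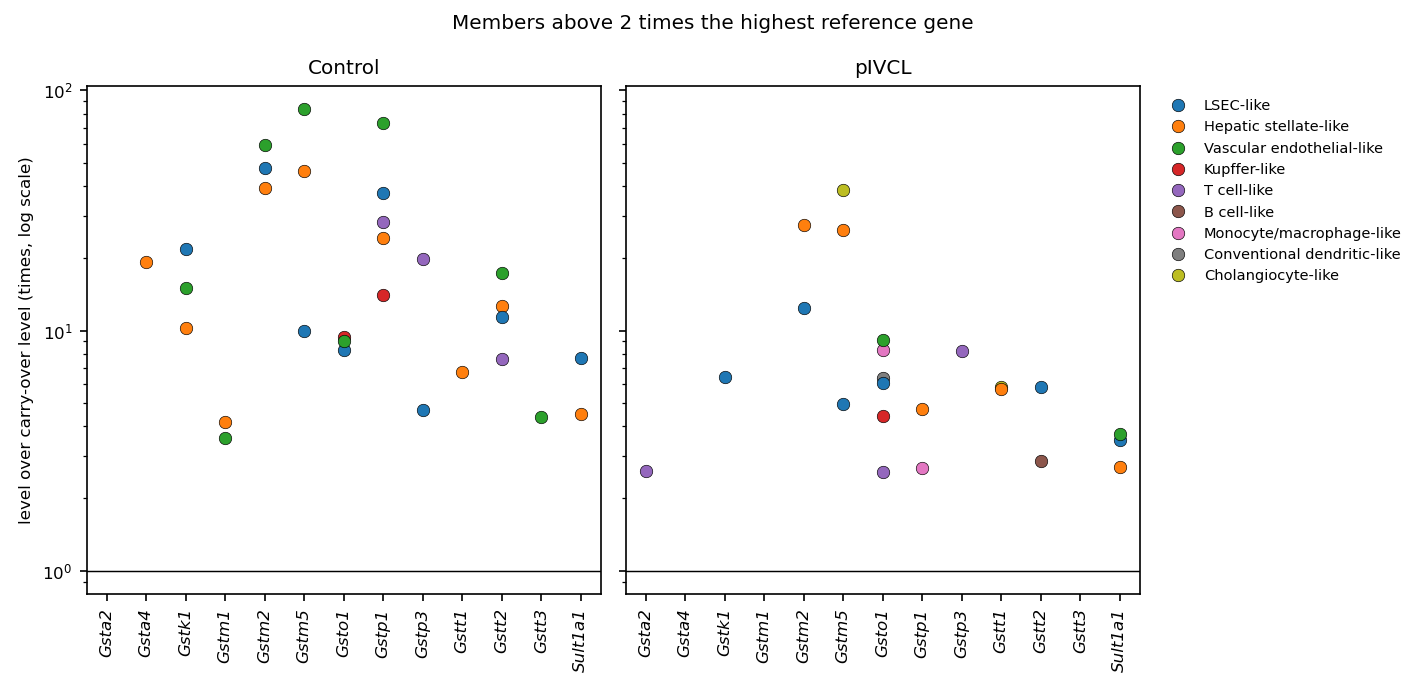
Level over hepatocyte carry-over (log axis) for members above 2 times the highest reference gene, by cell class, in Control and pIVCL. The highest values are those of Gstm5, Gstp1 and Gstm2 in Control vascular endothelial cells, from 59.3 to 83.6.

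Carry-over differed between the libraries in the classes that could be compared. The classes with at least 100 cells in each library were B cells, Kupffer cells, LSEC and T cells. Between the libraries carry-over went from 12.6% to 19.4% in B cells, from 8.83% to 21.1% in Kupffer cells, from 5.13% to 8.30% in LSEC and from 7.30% to 16.8% in T cells. Beside it, 5 of 26 members compared were higher in pIVCL in B cells, 10 of 29 in Kupffer cells, 2 of 30 in LSEC and 6 of 19 in T cells, and 0 were lower in each. Over all genes of these classes 1.29%, 2.36%, 1.99% and 2.96% were higher, and 0.222%, 0.255%, 1.14% and 0.841% were lower. Gstm1 was among the higher members in all 4 classes, at 116 and 772 CPM in Kupffer cells, yet in B, Kupffer and T cells it was not above carry-over in either library. The part of carry-over in these differences was not tested. In LSEC it had 157 and 398 CPM, 2.47 and 1.41 times carry-over, and there the libraries fell in different clusters, most Control LSEC in those led by Plpp1 and Wnt2 or by Adam23 and most pIVCL LSEC in one led by Esm1.

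In LSEC, 6 members were above the stricter limit in both libraries, and their pIVCL over Control ratios went both ways. Gstm2 had a ratio of 0.725 (0.598 to 0.873) in LSEC beside 1.70 in hepatocytes, and Gstk1 had 0.807 (0.614 to 1.05) beside 1.69. Gstm5 had 1.87 (1.03 to 3.29) beside 2.33, at 9.97 and 4.93 times carry-over, and Sult1a1 had 1.28 (1.11 to 1.48) beside 1.75. Gsto1 stood at 1.18 (0.940 to 1.48) and Gstt2 at 0.947 (0.660 to 1.33), and both differed little in hepatocytes. Gstp1 had a ratio of 0.594 (0.405 to 0.848), but its pIVCL level was only 2.07 times carry-over, under the stricter limit. With 1 library a group, the difference between classes was not tested.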

How the data were processed

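The authors deposited 1 matrix of UMI counts per library, made with Cell Ranger 3.0.2 on mm10 per the submitters' processing notes, from a 10x 3′ kit per the labels' protocols. The annotation release was not given in the sources used here. Raw deposited counts carry no normalization, and no deposited barcode had fewer than 500 UMIs. Of 31053 identifiers, 99.6% matched GENCODE vM21 (GRCm38), the source of the gene coordinates. Promoters are those of RefSeq for GRCm38.p6, where 56 of 64 members matched.

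Barcodes with at least 500 UMIs, 200 genes and at most 25% mitochondrial UMIs were kept. The mitochondrial limit removed 830 Control and 1554 pIVCL barcodes. Doublets were called per library by Scrublet (scanpy 1.11.5, 6% expected), which marked 8 Control (0.293%) and 3 pIVCL barcodes (0.0551%), so the caller probably did not work and doublets remain. Both libraries were clustered together without integration by Leiden (leidenalg 0.10.2, resolution 2, 20 neighbours, 30 components of 2000 variable genes) into 35 clusters. A cluster took the class with at least 3 markers among its 10 leading genes, or else the class of the highest mean marker score. It stayed unnamed with under 3 detected markers, with shallow cells and no own marker leading, or where another class led. Class names stand for marker-like cells throughout. An earlier description of these data used resolution 1. Of the clusterings and namings made for this work, 3 came before this one, and resolution, scaling and naming were settled from the clusters' markers. The present naming moved 2 clusters out of hepatocyte-like cells (673 to 367 Control and 1995 to 1850 pIVCL cells). The hepatocyte-like clusters include 1 led by cell cycle genes.

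UMIs were summed per class and scaled to CPM. Levels carry exact Poisson intervals and ratios conditional exact binomial intervals. Class contrasts needed at least 100 cells in each library. Steps were tested on simulated data, where the carry-over rule at the highest reference gene also marked members with no RNA of their own and the rule at 2 times did not. That check drew carry-over from the mean Control hepatocyte profile with counting error only. In the real classes the reference genes ran from 0.235 to 3.51 times the carry-over level. The check therefore cannot show that the rule at 2 times marks no false pair here. An alternative using the interval's lower bound was added after that check. Members, lists and rules were chosen with earlier results of these data known. Named members are those with at least 100 CPM in hepatocyte-like cells, a 2-fold difference there, or a level above carry-over, the last named only at 2 times the highest reference gene and otherwise given as counts. Of other lists, up to 3 genes farthest from 0 are named. Not every gene meeting them is reported here. Gstm6, Gstp2, Sult1b1, Sult2a1, Sult2b1, Sult3a2 and Sult5a1 lie outside these rules, and their values were chosen after they were seen. The calculations used Python 3.11.15, numpy 2.4.6 and scipy 1.17.1, and figures matplotlib 3.10.9.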

Additional observations from a re-analysis of the deposited data

How the results depend on the processing

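No paired analysis was possible because each group held 1 library. The number of members higher in pIVCL hepatocyte-like cells was 6 and ran from 4 to 7 over 19 alternatives. Gstm3, Gstm1 and Gstp1 were called under all 19, Gsta1 and Gsta2 under 18 each and Gsta4 under 7. The number lower was 1 and became 3 under a stricter cell filter (1000 UMIs, 500 genes, at most 10% mitochondrial) and with 5 CPM added. It became 2 with cells thinned to 2000 UMIs, with the mean over cells of CPM, with totals without mitochondrial, Mup and Alb UMIs, with central cells only and without the cell cycle cluster, and 0 with portal cells only, where the Sult3a1 log2 ratio was -0.35. Ugt3a1 joined in most of these cases.

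Zonal counts in Control were 3 central and 1 portal. They became 1 and 0 under the stricter filter, with thinned cells and with 50 CPM added, and 6 and 2 with 5 CPM added. The portal count became 2 with the highest against the lowest of 3 equal parts, and 0 without Cyp genes in the zone lists. With equal weight per list gene the counts were 2 and 1, but the portal member was Gsta2 in place of Sult5a1. In pIVCL, 1 central and 0 portal members became 2 and 1 under the stricter filter, and the portal count 1 with 5 CPM added.

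Pairs above carry-over in pIVCL went from 92 to 24 under the stricter filter, to 23 at 2 times the highest reference gene and to 48 with the interval's lower bound, where Control went from 40 to 30 at 2 times and to 35 with the lower bound. The cause was not tested.

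Of 587 values of single members under alternatives, 565 kept their sign, and of 172 values of called members all 172 did and 152 stayed past 2-fold. Resolution 1, both additions of unnamed clusters, the omission of the cell cycle cluster and the lower bound were chosen after seeing the data. Depth limits the low members: with 367 Control hepatocyte-like cells, Gsta1 rests on 8 Control UMIs, and values within shared clusters on as few as 1.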

Other observations

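Cells in unnamed clusters belong to no comparison. They were 310 in Control and 187 in pIVCL, with Gst UMIs at 2636 and 1563 CPM, Ugt at 1474 and 395, and Sult at 780 and 326. Alb stood at 41540 and 8090 CPM in them.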
